A study of Rattus norvegicus and Mus musculus with 34 samples.

Results

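Neuropeptides other than CGRP were described here across bone healing with and without sensory innervation. The genes were a fixed list of 10: the peptide precursors Npy, Prok2, Penk, Npff, Tac1, Vip and Adcyap1, and the receptors Npy1r, Tacr1 and Vipr1. They were matched by gene symbol, and all 10 were found among the 20022 genes measured in the rat healing tissue.

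RNA-seq was performed on healing tissue taken from a periodontal bone defect in the mandible of 23 male Sprague-Dawley rats, 6 to 8 weeks old and of genotype WT. The inferior alveolar nerve, which carries sensation from the mandible, was left intact in sensory nerve+ rats, whereas sensory nerve- rats lost a segment of it at the time of the defect, so every rat carried the defect. Tissue was collected on days 3, 7 and 14. Each group held 4 rats, except that the intact group of day 3 held 3. The tissue was labelled as mixed cells, so nerve endings, blood, marrow and muscle could all be in the same tube. The cell bodies of sensory neurons lie outside the tissue sampled. The 4 sensory nerve- rats of day 7 were deposited apart from the other rats. An effect of that cannot be told apart from transection at day 7. Nor can it be told apart from the changes of that arm from day 3 to day 7 and from day 7 to day 14. These rats also enter the tests over all days.

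Neuropeptides are short signalling peptides cut from larger precursors and released by nerve endings, and also by some immune and endocrine cells. They act on G protein-coupled receptors of nearby vascular, immune and skeletal cells. Peptidergic sensory fibres are best known for CGRP and substance P, which is made from Tac1, whereas sympathetic fibres are best known for neuropeptide Y, and VIP and PACAP (from Adcyap1) are made by autonomic and sensory fibres.

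Library totals lay between 14854389 and 18742274 expected counts per rat. An expected count is the number of reads credited to a gene, with reads that fit several genes shared between them. A gene was called detected in a rat above 3 counts, which was between 0.160 and 0.202 CPM across the libraries, CPM being the usual scaling of counts to a fixed library total. Levels are given as CPM scaled by TMM, a factor that makes the bulk of genes comparable between libraries. Transcript lengths were not used, so levels are compared between rats and never between genes.

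Counts well above the floor were found for some of these genes and hardly any for others. Npy, Npy1r, Prok2, Npff, Vipr1 and Penk were above 3 counts in all 23 rats, and 5 of these 6 were also above 10 counts in every rat, the exception being Prok2. Tacr1 was above 3 counts in 20 rats. Tac1 was above it in 4 rats, Vip in 6 and Adcyap1 in 6. The filter on low counts kept 15858 genes over the 6 groups, 7 of the 10 among them, and left out Tac1, Vip and Adcyap1.

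**Figure D1:**
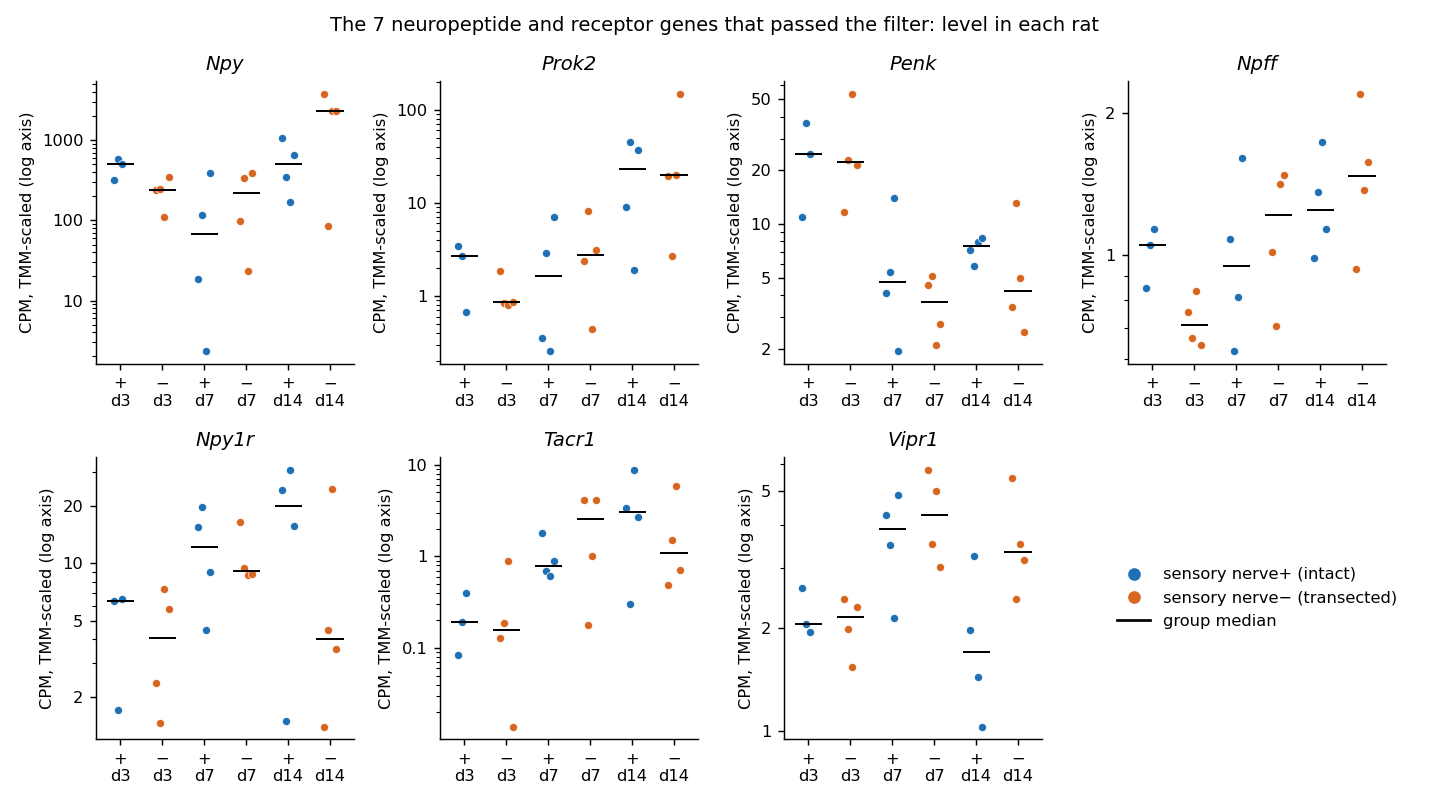
Level of the 7 genes that passed the filter, 1 point per rat, in TMM-scaled CPM on a log axis, by group (+, sensory nerve intact; -, transected; d, day); the bar is the group median. Npy ran from 2.35 to 3799.7 CPM and Npff only from 0.625 to 2.20 CPM.

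The first question was whether loss of the sensory nerve went with a different level of any of these genes. No gene of the list passed the test for transection on any day. At day 3, 0 of the 6 tested genes were called, against 0.0% of all genes tested. At day 7 it was 0 of 7, against 0.0%, and at day 14 again 0 of 7, against 0.0%. With all days in 1 model and day as a factor, 0 of 7 were called against 0.0%, and the test of whether the effect of transection differed between days called 0 of 7 against 0.0%. The test was edgeR's quasi-likelihood test with Benjamini-Hochberg adjustment over all genes and a threshold of 0.05. At an unadjusted p under 0.05 it gave 122 genes of all genes at day 3, 215 at day 7, 1362 at day 14, 811 over all days and 475 for the difference between days. DESeq2 called 0, 1, 95, 1 and 0 genes in the same order, and none of the list. Transected and intact rats overlapped for every tested gene of the list at days 7 and 14, where 0.813% and 3.31% of the genes kept had no overlap.

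The second question was which of these genes changed as healing went on. Calls by edgeR with all rats of a comparison were made only in the sensory nerve- arm. Between days 3 and 14 of that arm, Npy and Prok2 rose and Penk fell, 3 of the 6 tested, against 23.5% of all genes (8.89% higher and 14.6% lower). Between days 3 and 7 only Penk fell, 1 of 7, against 10.5% (6.77% lower). Between days 7 and 14 the count was 0 of 7, against 0.0138%.

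With the nerve intact, 0 of 7 were called between days 3 and 7, against 6.67% of all genes, 0 of 7 between days 7 and 14, against 0.0202%, and 0 of 7 between days 3 and 14, against 5.78%. In those 3 comparisons edgeR gave 3718, 1401 and 4242 genes of all genes at an unadjusted p under 0.05. DESeq2 called 2, 0 and 3 genes of the list. The rats of days 7 and 14 overlapped for every gene of the list in both arms, and groups without overlap made up 5.79% of the genes kept with the nerve intact and 11.8% after transection. Both comparisons with day 3 in an arm use the same day 3 rats. Whether a gene changed more in one arm than in the other is the test of the difference between days given above, which called no gene.

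**Figure D2:**
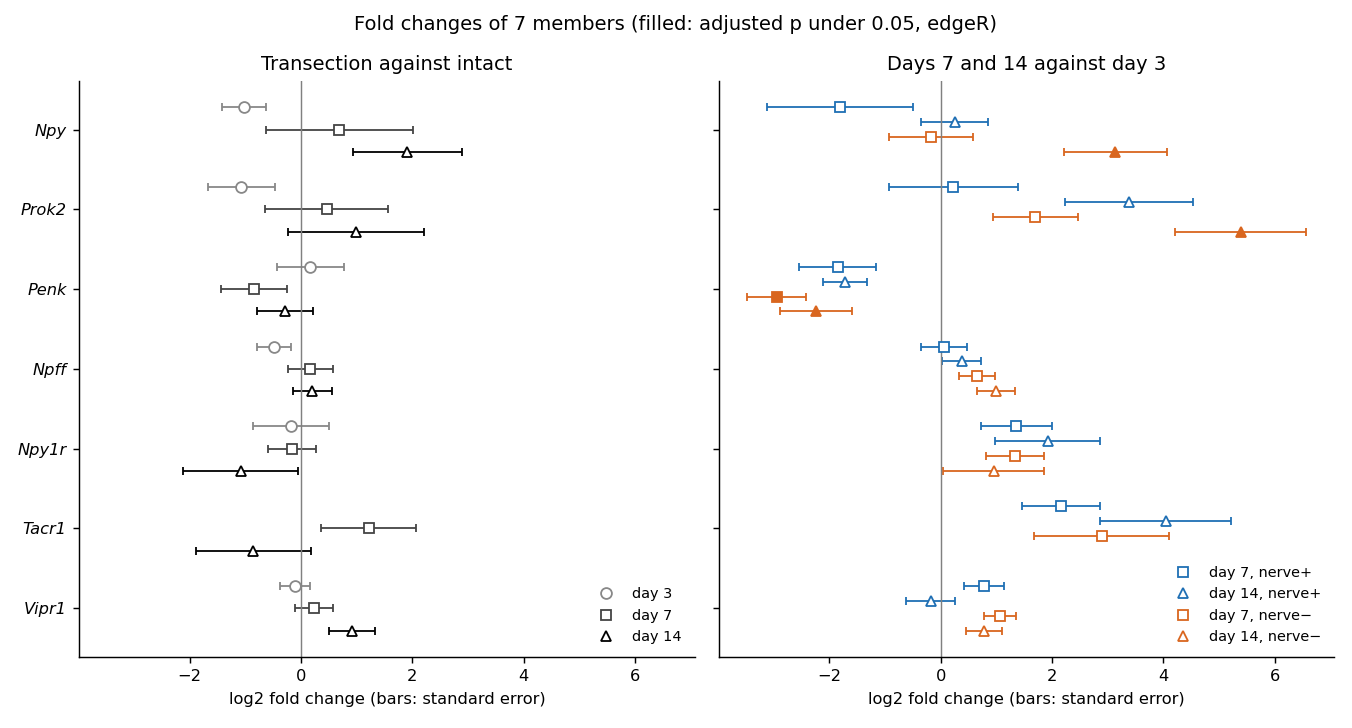
Log2 fold changes with standard errors of the 7 genes that passed the filter, for transection on each day (left) and for days 7 and 14 against day 3 in each arm (right). Filled symbols mark adjusted p under 0.05, and only 4 are filled: Npy (3.13), Prok2 (5.39) and Penk (-2.24) at day 14 and Penk (-2.95) at day 7, all in the sensory nerve- arm. Tacr1 has no symbol where the filter left it out, and its symbols against day 3 rest on day 3 counts near the floor.

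Npy encodes neuropeptide Y, a peptide of sympathetic neurons that constricts vessels and acts on bone cells. It had the widest range among these genes, 1616-fold between the lowest and the highest rat. The SD of its log2 level over the 23 rats was 2.34, larger than in 98.8% of the genes kept.

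At day 3, Npy was at 316, 588 and 512 CPM in the sensory nerve+ rats and at 239, 247, 109 and 351 CPM in the sensory nerve- rats. All 4 transected rats lay under the median of the intact rats, although the groups overlapped. The log2 fold change was -1.02 (SE 0.391), with an unadjusted p of 0.0349 and an adjusted p of 0.999975.

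At day 7, the sensory nerve+ rats had 18.7, 115, 2.35 and 389 CPM and the sensory nerve- rats 98.6, 338, 23.2 and 388 CPM. The spread inside each group was far larger than the gap between them. The log2 fold change for transection was 0.69 (SE of 1.32, with adjusted p = 0.999725).

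At day 14, Npy was at 1065, 344, 169 and 657 CPM with the nerve intact and at 3799.7, 85.0, 2294 and 2328 CPM after transection. On this TMM scale, 3 of the transected rats were above every other rat of the study and the other was below every intact rat of that day. The place of sensory nerve- rat 3, whose TMM factor was 0.496, depends on that scaling. It had 20772 Npy counts of 18274588, a smaller share than the 19472 of 16098995 in sensory nerve+ rat 1. The mean was 2127 ± 1531 CPM (SD, n = 4) against 559 ± 393 CPM (SD, n = 4), with a log2 fold change of 1.91 (SE of 0.973, with adjusted p = 0.519). The medians were 2311 CPM after transection and 501 CPM with the nerve intact. Scaled by the library total in place of TMM they were 1369.8 and 538 CPM, and the log2 fold change was 1.28 (adjusted p = 0.531). Over all days the log2 fold change for transection was 0.60 (SE of 0.698, with adjusted p = 0.890).

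Over time in the sensory nerve- arm, Npy rose from 237 ± 99.1 CPM (SD, n = 4) at day 3 to the day 14 level, 8.78-fold (log2 fold change 3.13, SE 0.925, adjusted p = 0.0427). The call rested on all of the rats together. It was lost without any 1 of 7 of the 8 rats, and held only without sensory nerve- rat 2 of day 14, the low one, with adjusted p from 0.00301 to 0.0996. With all 23 rats in 1 fit the adjusted p was 0.0513, which also ended the call, whereas DESeq2 gave 0.000564. Scaled by the library total, the log2 fold change was 2.58 with an adjusted p of 0.0507, and that scaling moved the median of all genes in this comparison to -0.42. From day 7 to day 14, the log2 fold change of Npy was 3.34 (SE of 1.16, with adjusted p = 0.151, and 0.0107 by DESeq2) in the sensory nerve- arm and 2.12 (SE of 1.28, with adjusted p = 0.617) in the sensory nerve+ arm.

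The genes whose levels ordered the 23 rats most like Npy were Clec1b, with a Spearman correlation of 0.981, Cd226, with 0.979, and Ly6g6f, with 0.977. Clec1b encodes a platelet receptor, Cd226 an adhesion receptor of lymphocytes and platelets, and Ly6g6f a platelet surface protein. For Clec1b the correlation was 0.893 among the 7 rats of day 3, 1.00 among the 8 of day 7 and 0.976 among the 8 of day 14. These points share the library and the day, and the Pearson correlation of deviations from the group means was 0.979.

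After these values were seen, 11 genes of platelets and megakaryocytes were summed per rat, Clec1b among them. At day 14 of the sensory nerve- arm their sum was 3769, 82.2, 3330.0 and 2627 CPM, in the same order of rats as the Npy values above. The rat low in Npy was also the rat low in these genes. In the other groups the median sum was 585 CPM (sensory nerve+) and 354 CPM (sensory nerve-) at day 3, 132 and 327 CPM at day 7, and 629 CPM in the sensory nerve+ rats of day 14.

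Npy and this sum had a Spearman correlation of 0.980 over the 23 rats, which the choice of the list in part fixes, and the Pearson correlation of deviations from group means was 0.968. For erythroid markers the Spearman correlation with Npy was 0.754, for neutrophil markers 0.800 and for the 7 measured sympathetic axon markers 0.311. Dbh, the enzyme that makes noradrenaline, was at or below the floor in all 23 rats, with at most 3 counts, and Th, the first enzyme of that pathway, was above it in 4 rats, with at most 5 counts. The other sympathetic axon markers were above the floor in more rats. Slc18a2 was above it in 23, with 171 to 752 counts, Ddc and Slc6a2 in 22, Hand2 in 16 and Phox2a in 14. The median of Slc18a2, 291 counts, was the highest of this list, against 50.7 for Ddc, the next. The summed level, and so the correlation of 0.311, weighs Slc18a2 most. The erythroid sum reached 928189 CPM in sensory nerve- rat 3 of day 14, whose TMM factor was 0.496. The part of blood or marrow in the Npy values was not tested. In such bulk tissue, fewer cells of a type and less RNA per cell cannot be told apart.

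**Figure D3:**
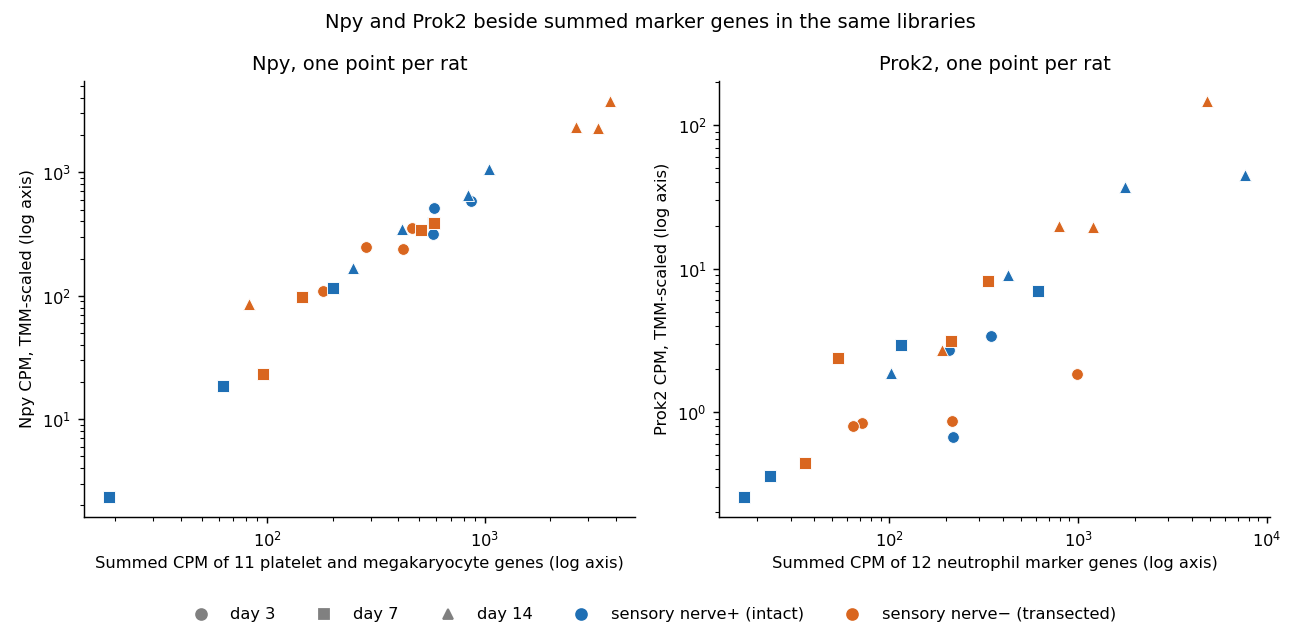
Npy against the summed level of 11 platelet and megakaryocyte genes (left) and Prok2 against that of 12 neutrophil markers (right), 1 point per rat, in TMM-scaled CPM on log axes; colour gives the nerve and shape the day. The Spearman correlation over 23 rats is 0.980 for Npy and 0.837 for Prok2. The 2 values cannot be ranked, since the platelet list was added after the genes most like Npy were seen and holds Clec1b, the most alike of them.

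The 250 bases before the start of Npy are shown because this is the gene with the widest range here. They were taken from RefSeq's promoter table of GRCr8 at chr4:80211861-80212110, on the plus strand, whereas the reads had been aligned to mRatBN7.2.
Npy upstream: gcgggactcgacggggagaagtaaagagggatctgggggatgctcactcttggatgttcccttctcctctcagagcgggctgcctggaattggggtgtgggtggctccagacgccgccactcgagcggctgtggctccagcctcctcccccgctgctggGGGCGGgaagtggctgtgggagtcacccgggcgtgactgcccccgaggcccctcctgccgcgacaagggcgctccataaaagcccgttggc
The capitals mark the only match to GGGCGG, a GC box, on either strand, which begins 91 bases before the gene start. GGGCGG was found in 32.4% of 27457 promoter windows of this length. TATAAA, found in 13.1% of them, TGACG, in 19.0%, and GATAA, in 23.2%, had no match here on either strand. A match describes letters and not a binding site. Of the 10 genes, 8 had an entry in the table, and Npff and Penk had none.

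Prok2 encodes prokineticin 2, a secreted peptide made by neurons and by neutrophils that acts on gut muscle, vessels and nociceptors. Its counts ran from 6 to 1602, and its SD over the rats, 2.04 on the log2 scale, was larger than in 98.1% of the genes kept. At day 3 it was at 3.40, 2.71 and 0.668 CPM in the sensory nerve+ rats and at 1.85, 0.840, 0.793 and 0.860 CPM in the sensory nerve- rats, with a log2 fold change of -1.08 (SE of 0.601, with adjusted p = 0.999975).

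At day 7 the sensory nerve+ rats had 0.356, 2.92, 0.257 and 6.99 CPM of Prok2 and the sensory nerve- rats 2.40, 8.24, 0.440 and 3.13 CPM. These values spread over the whole range of day 3 and beyond it. At day 14 they were 8.996, 45.4, 1.88 and 37.2 CPM with the nerve intact and 19.4, 2.71, 19.97 and 148 CPM after transection. The log2 fold change for transection was 0.46 (SE of 1.11, with adjusted p = 0.999725) at day 7. It was 0.99 (SE of 1.22, with adjusted p = 0.785) at day 14 and 0.25 (SE of 0.677, with adjusted p = 0.954) over all days. Every transected rat of day 14 was above every transected rat of day 3, as for 25.3% of the genes kept when both directions are counted.

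Prok2 rose 41.8-fold from day 3 to day 14 in the sensory nerve- arm (log2 fold change 5.39, SE 1.18, adjusted p = 0.0171). The call was lost without sensory nerve- rat 2 of day 3 (adjusted p = 0.0524) and held without each of the other 7 rats. Without sensory nerve- rat 4 of day 14, which alone had 148 CPM, the log2 fold change was 3.66. In the sensory nerve+ arm the log2 fold change from day 3 to day 14 was 3.39 (SE of 1.15, with adjusted p = 0.112), and DESeq2 gave an adjusted p of 0.00514. From day 7 to day 14 it was 3.23 (SE of 1.26, with adjusted p = 0.505) with the nerve intact and 3.75 (SE of 1.25, with adjusted p = 0.144, and 0.00779 by DESeq2) after transection.

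The levels of Prok2 followed those of 12 neutrophil markers, such as S100a8 and Cxcr2, with a Spearman correlation of 0.837 over the 23 rats. The correlation was 0.429 among the rats of day 3, 0.976 at day 7 and 0.952 at day 14. The neutrophil sum was 1197, 189, 794 and 4810 CPM in the transected rats of day 14, and the rat with 148 CPM of Prok2 was the highest of them. Sensory nerve+ rat 2 of day 14 had the highest sum of all, 7676 CPM, beside 45.4 CPM of Prok2. The part of neutrophil number in the change of Prok2 was not tested. The genes most like Prok2 in their order over the rats were Oas1k (0.970), Ifit1bl (0.963) and Nlrp12 (0.961).

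Penk encodes proenkephalin, the precursor of the opioid enkephalins, which is also expressed in mesenchymal and skeletal tissue. It was highest at day 3. The sensory nerve+ rats then had 10.96, 36.7 and 24.8 CPM and the sensory nerve- rats 11.7, 22.99, 53.7 and 21.4 CPM. At day 7 the values were 4.11, 5.36, 14.0 and 1.95 CPM with the nerve intact and 4.55, 5.09, 2.10 and 2.76 CPM after transection.

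All 4 transected rats of day 7 were below all 4 of day 3, as for 20.7% of the genes kept when both directions are counted. The day 7 level was 0.130 times that of day 3 (log2 fold change -2.95, SE 0.534, adjusted p = 0.0184). This call was lost without sensory nerve- rat 1 of day 3 (adjusted p = 0.0545) or sensory nerve- rat 3 of day 7 (adjusted p = 0.0568), with a log2 fold change between -3.21 and -2.37 over the 8 fits that leave out 1 rat. With the nerve intact, the log2 fold change was -1.85 (SE of 0.687, with adjusted p = 0.154). DESeq2 gave an adjusted p of 0.0391 there, and edgeR 0.0342 without sensory nerve+ rat 3 of day 7.

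At day 14 Penk was at 7.16, 5.86, 7.99 and 8.31 CPM in the sensory nerve+ rats and at 3.44, 13.1, 4.97 and 2.50 CPM in the sensory nerve- rats. From day 3 to day 14 it fell in the sensory nerve- arm (log2 fold change -2.24, SE 0.646, adjusted p = 0.0399). Leaving out 1 rat ended that call in 6 of 8 fits, the exceptions being those without sensory nerve- rat 1 of day 3 or rat 2 of day 14, and scaling by the library total gave an adjusted p of 0.0557.

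With the nerve intact, the rats of day 14 were all below those of day 3, as for 24.0% of the genes kept, and the log2 fold change of Penk was -1.72 (SE of 0.397, with adjusted p = 0.0522). DESeq2 gave 0.00110 for that comparison, and edgeR 0.0283 without sensory nerve+ rat 1 of day 3 and 0.0448 without sensory nerve+ rat 2 of day 14. The change of Penk with time had the same sign in both arms. For transection its log2 fold change was 0.17 (SE of 0.606, with adjusted p = 0.999975) at day 3 and -0.85 (SE of 0.595, with adjusted p = 0.999725) at day 7. It was -0.28 (SE of 0.503, with adjusted p = 0.856) at day 14 and -0.32 (SE of 0.343, with adjusted p = 0.881) over all days.

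Epithelial and enamel organ markers were also high in part of the day 3 libraries. Their sum was 9.43, 4187 and 23414 CPM in the sensory nerve+ rats and 94.5, 477, 11981 and 36.3 CPM in the transected rats of day 3, and at most 22.7 CPM at day 14. Penk was highest in the rat with 11981 CPM, and its Spearman correlation with the sum was 0.702 over 23 rats, 0.857 at day 3, 0.286 at day 7 and 0.429 at day 14. With the sensory axon markers Penk had a Spearman correlation of 0.665 over 23 rats, 0.464 at day 3, 0.714 at day 7 and 0.738 at day 14. The part of these cells and axons in the change of Penk was not tested. The genes most like Penk in their order over the rats were Zcchc3 (0.881), LOC100302465 (0.875) and Ugdh (0.874).

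Npff encodes the precursor of neuropeptide FF, a modulator of opioid signalling. Its counts lay between 11.4 and 39, and its level between the lowest and the highest rat differed 3.52-fold. At day 3 the sensory nerve+ rats had 0.850, 1.05 and 1.13 CPM and the sensory nerve- rats 0.754, 0.665, 0.839 and 0.642 CPM, so the groups did not overlap, as for 1.7% of the genes kept. The gap was small, 0.850 against 0.839 CPM between the nearest rats, and the log2 fold change was -0.49 (SE of 0.308, with adjusted p = 0.999975).

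Later levels of Npff were 0.625 to 1.61 CPM at day 7 with the nerve intact and 0.705 to 1.48 CPM after transection, and at day 14 they were 0.984 to 1.74 and 0.931 to 2.20 CPM. On the TMM scale, all transected rats of day 14 were above all of day 3, as for 25.3% of the genes kept in either direction. The log2 fold change was 1.00 (SE of 0.344, with adjusted p = 0.0694), and DESeq2 gave an adjusted p of 0.0414. The counts themselves overlapped, with 11.38, 39, 12.46 and 17 at day 14 and 13, 14, 18 and 12 at day 3. The separation thus depends on the scaling. Over the 6 alternative fits of all rats, 2 called Npff, with log2 fold changes from 0.69 to 1.08 and adjusted p from 0.0299 to 0.425. The depth of 11.4 to 39 counts a rat limits how finely levels of Npff can be told apart. The genes most like Npff were Trafd1 (0.792), RGD1308117 (0.768) and Scg5 (0.767).

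Tac1, which encodes the precursor of substance P and neurokinin A, was at or near 0 counts in these libraries. It had 0 counts in 13 of 23 rats and at most 5.34. The sensory nerve+ rats had 0, 3 and 0 counts at day 3, 2, 2, 4.99 and 0 at day 7, and 2, 0, 4 and 5.34 at day 14. After transection there were 0 counts in all 4 rats of day 3, 3 counts in 1 rat of day 7 and none in the others, and 0, 0, 3.96 and 2 counts at day 14.

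Summed over all days, Tac1 had 23.3 counts in 11 sensory nerve+ rats and 8.96 counts in 12 sensory nerve- rats, and was above the floor in 3 and 1 of them. No difference in Tac1 was detectable at this depth. Without the filter, edgeR gave a log2 fold change of -0.99 for transection over all days (adjusted p = 0.835).

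Vip, the precursor of vasoactive intestinal peptide, never exceeded 5 counts, and Adcyap1, the precursor of PACAP, never exceeded 7.6. Vip summed to 25.0 counts in the 11 sensory nerve+ rats and 19 in the 12 sensory nerve- rats, with 4 and 2 rats above the floor. Adcyap1 summed to 28.7 and 19.6 counts, again with 4 and 2 rats above the floor. By day, Vip was above the floor in 1 of 7 rats at day 3, 3 of 8 at day 7 and 2 of 8 at day 14, and Adcyap1 in 1, 2 and 3 rats.

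Markers of sensory axons were measured in the same libraries. Of 16 sensory axon markers, 5 were above the floor in every rat, Trpv1 among them with 5 to 89 counts, whereas Scn11a was at or below it in all 23 and Trpa1 was above it in 1. The summed level of this list ran from 17.6 to 143 CPM.

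**Figure D4:**
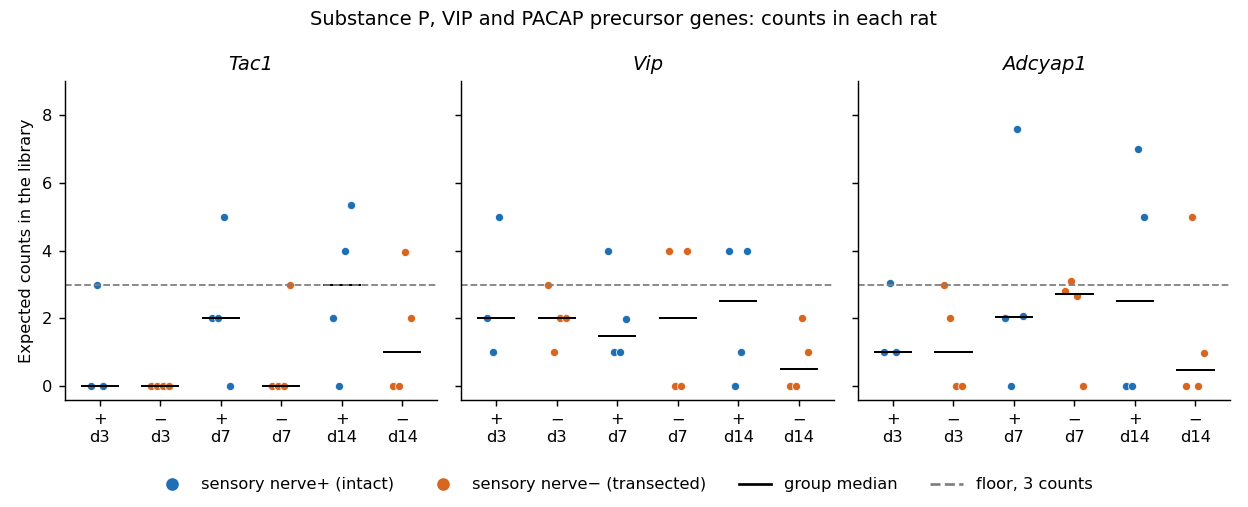
Expected counts of Tac1, Vip and Adcyap1, 1 point per rat by group (+, sensory nerve intact; -, transected; d, day); the bar is the group median and the dashed line the floor of 3 counts. Most rats lie on or under the line and no rat is above 7.6 counts.

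Among the receptors, Npy1r encodes the Y1 receptor, through which neuropeptide Y acts on vessels, osteoblasts and immune cells. At day 3 it was at 6.34, 1.71 and 6.49 CPM in the sensory nerve+ rats and at 2.38, 1.45, 7.32 and 5.77 CPM in the sensory nerve- rats. The values of day 7 were 15.4, 19.6, 4.49 and 8.95 CPM with the nerve intact and 16.4, 9.45, 8.71 and 8.74 CPM after transection. All transected rats of day 7 were above all of day 3, as for 20.7% of the genes kept in either direction, though the test was not passed (log2 fold change 1.33, SE 0.521, adjusted p = 0.137), and DESeq2 gave 0.0483.

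With the nerve intact, the log2 fold change of Npy1r from day 3 to day 7 was 1.36 (SE of 0.635, with adjusted p = 0.241) and to day 14 it was 1.93 (SE of 0.940, with adjusted p = 0.228). Its day 14 values were 24.2, 1.499, 30.8 and 15.6 CPM with the nerve intact and 1.40, 4.49, 24.5 and 3.58 CPM after transection. The transected rat at 24.5 CPM stood apart from the other 3. Without sensory nerve+ rat 2 of day 14, the lowest intact rat, the log2 fold change in the intact arm from day 3 to day 14 was 2.33 with an adjusted p of 0.0332. For transection at day 14 it was -1.09 (SE of 1.04, with adjusted p = 0.716), and over all days -0.50 (SE of 0.471, with adjusted p = 0.874).

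Sensory nerve+ rat 2 of day 14, low in Npy1r, was also low in skeletal muscle markers, with 267 CPM against 14651 to 28365 CPM in the other 3. The muscle sum lay between 21.4 and 400.2 CPM at day 3 and between 2111 and 38423 CPM at day 7. Npy1r had a Spearman correlation of 0.789 with these markers and of 0.733 with endothelial markers over 23 rats. By day these were 0.107, 0.571 and 0.810 with muscle and 0.714, 0.619 and 0.738 with endothelial markers. The part of muscle and of endothelial cells in the values of Npy1r was not tested. Its most alike genes were Pmfbp1 (0.905), Palmd (0.895) and Tns1 (0.895). Npy itself and Npy1r did not follow each other over the rats (Spearman correlation -0.0909).

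Tacr1 encodes the NK1 receptor of substance P, found on endothelial and immune cells among others. It was near the floor at day 3, with 1.30, 4.03 and 7.83 counts in the sensory nerve+ rats and 2.20, 3.93, 19.0 and 0.260 counts in the sensory nerve- rats, so the filter left it out of the test of transection at day 3. At day 7 it was at 1.81, 0.694, 0.611 and 0.895 CPM with the nerve intact and at 4.13, 0.176, 1.01 and 4.10 CPM after transection. The log2 fold change for transection at that day was 1.22 (SE of 0.854, with adjusted p = 0.999725).

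At day 14 Tacr1 was at 3.39, 0.302, 8.84 and 2.71 CPM in the sensory nerve+ rats and at 0.485, 1.497, 5.79 and 0.704 CPM in the sensory nerve- rats, with a log2 fold change of -0.85 (SE of 1.03, with adjusted p = 0.780). The intact rats of day 7 were all above those of day 3, as for 24.8% of the genes kept. Their log2 fold change was 2.17 (SE of 0.697, with adjusted p = 0.112). From day 3 to day 14 it was 4.04 (SE of 1.18, with adjusted p = 0.0821), which DESeq2 called with an adjusted p of 0.00184, as did edgeR without sensory nerve+ rat 2 of day 14 (0.0150) or with all 23 rats in 1 fit (0.0447). In the sensory nerve- arm the log2 fold change from day 3 to day 7 was 2.89 (SE of 1.21, with adjusted p = 0.159). Tacr1 passed the filter of these comparisons with day 3 mostly through its later levels. Their folds and calls therefore rest on day 3 counts near the floor.

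The low rat of the intact day 14 group was the same for Tacr1 as for Npy1r. Tacr1 had a Spearman correlation of 0.742 with endothelial and of 0.681 with muscle markers over 23 rats, and by day these were 0.50, 0.381 and 0.786 with endothelial markers and -0.536, 0.310 and 0.786 with muscle markers, which was negative at day 3. The part of these tissues was not tested. The genes most like it in their order were Ace (0.916), Cyb561 (0.904) and Il34 (0.898). Ace encodes a peptidase of endothelial cells that also cleaves substance P.

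Vipr1 encodes VPAC1, a receptor of VIP and PACAP on lymphocytes, epithelium and other cells. At day 3 it was at 2.62, 2.05 and 1.95 CPM in the sensory nerve+ rats and at 2.44, 1.99, 1.54 and 2.30 CPM in the sensory nerve- rats. By day 7 the values were 4.26, 3.49, 2.14 and 4.896 CPM and 5.79, 3.52, 5.03 and 3.02 CPM. All transected rats of day 7 were above those of day 3, as for 20.7% of the genes kept in either direction, with a log2 fold change of 1.06 (SE of 0.292, with adjusted p = 0.0556), and DESeq2 (0.00467) and the fit of all 23 rats (0.0474) placed it past the threshold. With the nerve intact the log2 fold change was 0.79 (SE of 0.359, with adjusted p = 0.232).

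At day 14 Vipr1 was at 1.97, 3.25, 1.44 and 1.03 CPM with the nerve intact and at 5.48, 2.42, 3.51 and 3.15 CPM after transection. On the TMM scale, 2 of the 4 transected rats were above every intact rat. The place of sensory nerve- rat 3, 1 of these 2, depends on that scaling. It had 31.78 Vipr1 counts of 18274588, a smaller share than the 64.98 of 15917473 in sensory nerve+ rat 2. Over the 7 alternative fits of all rats, the log2 fold change for transection at day 14 ran from 0.36 to 0.98, with adjusted p from 0.341 to 0.753. The log2 fold change was 0.91 (SE of 0.413, with adjusted p = 0.519) for transection at day 14, 0.37 (SE of 0.217, with adjusted p = 0.860) over all days, and 0.78 (SE of 0.326, with adjusted p = 0.116) from day 3 to day 14 after transection. Sensory axon markers had a Spearman correlation of -0.756 with Vipr1 over 23 rats, and of -0.429, -0.381 and -0.929 within days 3, 7 and 14. For lymphocyte markers it was 0.460 over 23 rats, and 0.429, 0.119 and 0.881 by day. The lymphocyte sum had a median of 615 CPM in the transected rats of day 14 and 342 CPM in the intact ones. Cd4 had the highest median count of that list, 3095, against 610 for Cd8a, the next. The sum thus weighs Cd4 most and is not a count of lymphocytes. The part of these cells and axons in the values of Vipr1 was not tested. The genes most like Vipr1 were Mia2 (0.741), Mif4gd (0.734) and Etfrf1 (0.716).

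Other genes of peptide signalling were counted in 5 further lists. Of 14 other receptors of the same peptides, 13 were in the table and 5 passed the filter (Npy4r, Prokr1, Prokr2, Vipr2 and Adcyap1r1), and 0 were called in any comparison. Vipr2 (68 to 349 counts) and Adcyap1r1, the PACAP receptor (10.7 to 362 counts), were above the floor in every rat. Prokr1 and Prokr2, the receptors of prokineticin 2, were above it in 18 and 20 rats. Tacr2, Tacr3 and the µ-opioid receptor gene Oprm1 were at or below it in all 23 rats.

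Of 37 other peptide precursors, 34 were in the table, 12 passed the filter and 13 were at or below the floor in every rat. Only Trh, which encodes thyrotropin-releasing hormone, was called, 1 lower of 8 tested, against 3.09% of all genes. It fell in the sensory nerve+ arm from 4.94 ± 5.69 CPM (SD, n = 3) at day 3 to 0.126 ± 0.122 CPM (SD, n = 4) at day 14 (adjusted p = 0.0468). The day 14 mean lies under the floor, so Trh entered this test through its day 3 level and no fold is given. In that comparison the median log2 fold change of the 8 tested precursors was 0.22, beside 0.0031 over all genes tested.

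Of 38 receptors of other peptides, 34 were in the table and 14 passed the filter. Crhr2, a receptor of urocortins, rose from day 3 to day 7 in both arms, by a log2 fold change of 3.79 (SE of 0.556, with adjusted p = 0.0126) with the nerve intact and 3.97 (SE of 0.931, with adjusted p = 0.0365) after transection. With the nerve intact it ran from 0.429 to 1.11 CPM at day 3 and from 5.09 to 16.0 CPM at day 7. After transection it ran from 0.233 to 1.66 CPM at day 3 and from 5.18 to 40.6 CPM at day 7, with a day 7 median of 6.27 CPM. These folds rest on low day 3 levels. In the intact arm Nmbr, the neuromedin B receptor, was under the floor in every rat of day 3, with at most 0.102 CPM. It rose to between 0.513 and 3.12 CPM by day 7 (adjusted p = 0.0220) and was between 0.400 and 1.80 CPM at day 14 (adjusted p = 0.0434 against day 3). It entered these tests through its later levels, and no fold is given. The somatostatin receptor Sstr4 fell there from between 1.03 and 4.25 CPM at day 3 to between 0.0521 and 0.342 CPM at day 7 (adjusted p = 0.0462), levels on both sides of the floor, and no fold is given. In the transected arm the secretin receptor Sctr rose by a log2 fold change of 3.20 to day 7 and of 2.63 to day 14, and Sstr3 by 2.69 to day 14. With the nerve intact that makes 2 higher and 1 lower of 8 tested at day 7, against 4.88% and 1.79% of all genes, and 1 higher of 10 at day 14, against 2.69%. Nmbr and Sstr4 are among these calls at day 7, and Nmbr is the only one at day 14. Both passed the filter through the group where they were high. The tallies and medians of the intact arm thus include genes kept by the levels compared, and nothing is read from them. After transection 2 of 7 were higher at each day, against 3.68% at day 7 and 8.89% at day 14. The median log2 fold change of the list was 0.76 and 1.07 from day 3 to day 7 in the intact and transected arms, beside 0.05 and -0.015 over all genes tested, and 1.19 and 0.84 to day 14, beside 0.0031 and -0.048.

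All 9 peptide degrading enzymes passed the filter. Thop1 and Prep, peptidases of the cytosol, fell from day 3 to day 14 in both arms, by 0.84 and 0.66 on the log2 scale with the nerve intact and by 1.29 and 0.99 after transection. Prep also fell by 0.67 and Thop1 by 0.77 to day 7 after transection, 2 of 9 against 6.77% of all genes. Anpep fell by 1.64 to day 14 with the nerve intact, and Dpp4, which clips neuropeptide Y, rose by 2.42 after transection. In all, 1 rose and 3 fell of 9 from day 3 to day 14 in the intact arm, against 2.69% and 3.09% of all genes, and 1 rose and 2 fell in the transected arm, against 8.89% and 14.6%, where their median log2 fold change was -0.48 beside -0.048 over all genes tested. None of the 9 genes of peptide processing and secretory granules that passed the filter, of 12, was called in any comparison. For transection, no gene of these 5 lists was called on any day or over all days.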

How the data were processed

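Healing tissue of 23 rats was sequenced by the authors on the DNBSEQ platform. Reads were aligned with HISAT to mRatBN7.2, and Bowtie2 is also named in the submitters' processing notes. The authors deposited an expected count per gene and rat. The counting program is not given in the sources used here, and 37.0% of the values were whole. Columns were matched to rats by their titles, and groups came from the sample labels. A table of macrophage cultures was not used.

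Expected counts were rounded and, after filterByExpr and TMM, tested with edgeR 4.0.16 (glmQLFit, glmQLFTest; R 4.3.3), each comparison on its own groups and the pooled and difference tests on all 6. P-values were adjusted by Benjamini-Hochberg over all genes tested, at 0.05. The standard error is the log2 fold change over the square root of F. CPM per rat came from 1 normalization of all rats. Nothing in the labels ties rats to cages or days, and p-values judge a difference between groups against the spread between rats.

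The genes and lists were chosen with earlier results of these data known, and the platelet list after the values here were seen. Named from each list were the genes past the threshold, at most 3 with the smallest adjusted p per comparison. Alike genes were the 3 with the highest Spearman correlation of log2(CPM + 0.5) over the rats. Alternatives were DESeq2 1.42.0, RLE factors, library totals, no filter, a filter at 1 CPM, a replicate block, 1 fit of all rats, each rat left out, and a floor of 10 counts. Scripts were tested on simulated data.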

Additional observations from a re-analysis of the deposited data

Results flagged for a closer look

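In groups of 4 rats, the highest or lowest value was set against the other 3 for each of the 7 genes that passed the filter, 35 groups in all, by Dixon's criterion, and 4 stood apart. Chance flags about 1 in 20 groups. Prok2 was at 148 CPM in sensory nerve- rat 4 of day 14, against 2.71 to 19.97 CPM in the others. Prok2 was at 1.85 CPM in sensory nerve- rat 1 of day 3, against 0.793 to 0.860 CPM. Npy1r was at 24.5 CPM in sensory nerve- rat 3 of day 14, against 1.40 to 4.49 CPM. Npy1r was at 16.4 CPM in sensory nerve- rat 1 of day 7, against 8.71 to 9.45 CPM. In the same libraries the neutrophil sum was 4810 CPM in the first of these rats and 988 CPM in the second, each the highest of its group, and the muscle sum was 7783 CPM in the third and 38423 CPM in the fourth, again each the highest of its group. The endothelial sum was also the highest of its group in the third, at 1835 CPM, and in the fourth, at 1343 CPM. The part of these cells was not tested.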

How the results depend on the processing

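No fit that kept all rats changed a transection count of these genes from 0, and leaving out each rat gave 0 as well. With DESeq2, 2 genes were called between days 3 and 7 with the nerve intact, 3 between days 3 and 14, 3 between days 3 and 7 after transection and 2 (Npy and Prok2) between days 7 and 14 after transection. With all 23 rats in 1 fit, 1 gene was called from day 3 to day 14 with the nerve intact and 2 from day 3 to day 7 after transection, and from day 3 to day 14 after transection it called 3, with Npff (adjusted p = 0.0299) in place of Npy (0.0513). Library totals left 1 call from day 3 to day 14 after transection, Prok2, and moved the median log2 fold change of all genes there to -0.42, of days 7 to 14 to -0.40 and of transection at day 14 to -0.41. Leaving out 1 rat gave 0 to 1 calls (days 3 to 7) and 0 to 3 (days 3 to 14) with the nerve intact, and 0 to 1 and 0 to 3 after transection. The highest count in the intact arm came without sensory nerve+ rat 2 of day 14, and the lowest from day 3 to day 14 after transection came without sensory nerve- rat 2 of day 3, whose Schwann cell markers summed to 2946 CPM. A floor of 10 counts left 5 genes above it in every rat in place of 6.

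With the replicate number as a block, 0 of these genes were called from day 3 to day 7 and 1, Penk, from day 3 to day 14 after transection, where Npy had an adjusted p of 0.180 and Prok2 of 0.0505. Whether the numbers pair the rats cannot be settled from these values. The lowest correlation of deviations between same-numbered rats lay between -0.358 and 0.031 over the 9 comparisons. In none did every rat correlate best with its own number. For transection at day 7, 6 of 8 rats did, and in the other comparisons at most 2. The mean correlation for transection at day 7 was 0.178 between same-numbered rats and -0.062 between the others. The cause of these moves was not tested. Depth limits Tac1, Vip and Adcyap1 most, since 3 counts is the floor and none of them passed 7.6.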

Other observations

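Some genes of the further lists were described after their values were seen, none of them called in any comparison. Group medians are given, without the spread between rats. The transected rats of day 14 had TMM factors of 0.823, 1.17, 0.496 and 0.689. A low factor raises CPM, so the medians of that group depend on the scaling. Vipr2, which encodes VPAC2, the other receptor shared by VIP and PACAP, had a median of 23.5 CPM among transected rats of day 14, and medians of 7.95 (sensory nerve+) and 5.81 CPM (sensory nerve-) at day 3, 7.36 and 6.99 CPM at day 7 and 9.21 CPM in the sensory nerve+ rats of day 14. Adcyap1r1, the PACAP receptor, had medians of 2.81 and 2.72 CPM at day 3, 7.53 and 12.1 CPM at day 7 and 8.63 and 2.97 CPM at day 14, in the same order of groups. These receptors were read in every rat, whereas Vip and Adcyap1 themselves were rarely above the floor.

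Gal, which encodes galanin, a peptide that sensory neurons make after injury, was above the floor in all 23 rats, with 5 to 234 counts. Its medians were 3.81 and 4.02 CPM at day 3, 1.79 and 1.91 CPM at day 7 and 3.895 and 11.7 CPM at day 14, the sensory nerve+ group first. Nts, which encodes neurotensin, was above the floor in 13 rats and ran from 0 to 2468 counts, with medians of 1.54 and 13.6 CPM at day 3 and at most 1.21 CPM in the groups of days 7 and 14.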
